A study of Pyrus ussuriensis with 15 samples.

Results

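In the adventitious root series of *Pyrus ussuriensis* Maxim, an Asian pear, 74 gene models stood at least 4 times higher in every day 12 library than in any library of the earlier days. They were chosen from the 42812 models of the deposited table whose IDs start with Pbr, which has 44681 models in all. Levels were in CPM, the read count of a model times 1000000 divided by the total count of its library. A model was taken when its lowest day 12 library reached at least 4 times the highest of the 12 other libraries, its day 9 mean was under 2 times its day 0 mean, and its day 12 mean was at least 2 CPM. The day 12 levels and the comparison of day 9 with day 0 therefore chose the models, and they are described here without a test.

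Messenger RNA was sequenced at 5 times while adventitious roots formed, with 3 libraries each on days 0, 3, 6, 9 and 12. All groups came from adventitious buds subcultured for 25 days and share 1 root induction medium, 1/2 MS at pH 6.0 with 7.5 g agar, sucrose at 30.0 g/L and IBA at 0.5 mg/L. No untreated group runs beside the days, so time and medium cannot be told apart. Even the day 0 samples are labelled as adventitious roots, like those of all later days, and the series title counts 4 stages where the samples give 5 days. Replicates carry numbers and no statement that each was its own culture, so a p-value here reflects variation between libraries that may be purely technical.

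Adventitious roots form on stems, leaves or buds and not from the seedling root. Auxins such as IBA (indole-3-butyric acid) are widely used to induce them in cuttings and in tissue culture. Root formation is commonly divided into an induction phase, the initiation of dividing cells that organise a root primordium, and the outgrowth of the root. These are whole-sample libraries, in which fewer cells of a type and less RNA per cell cannot be told apart. The table pairs no ID with a gene name or a function, so the labelled tissue could not be checked against marker genes, and the models are called by their positions on the scaffolds of the table.

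Library totals ran from 11953240 to 17878524 counts. Replicates of 1 day correlated between 0.939 and 0.985 in log2 CPM over the models tested, lowest between the day 6 libraries (0.939 to 0.948) and highest between those of day 12 (0.983 to 0.985). No 2 replicates of a day agreed within counting noise, since the chi-square per degree of freedom between replicates ran from 4.30 to 48.4.

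The 74 models took 1.56% ± 0.01 of all counts on day 12 (SD, n = 3). Their share was 0.197% ± 0.000933 on day 0, 0.149% ± 0.00135 on day 3, 0.159% ± 0.0169 on day 6 and 0.159% ± 0.019 on day 9 (SD, n = 3 each). The 3 models with the highest day 12 means made up 46.2% of the summed day 12 level. Without them the share was 0.837% on day 12 and between 0.0695% and 0.1% on the other days, and the rule fixes that any part of the group sums to at least 4 times more on day 12 than before.

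**Figure D1:**
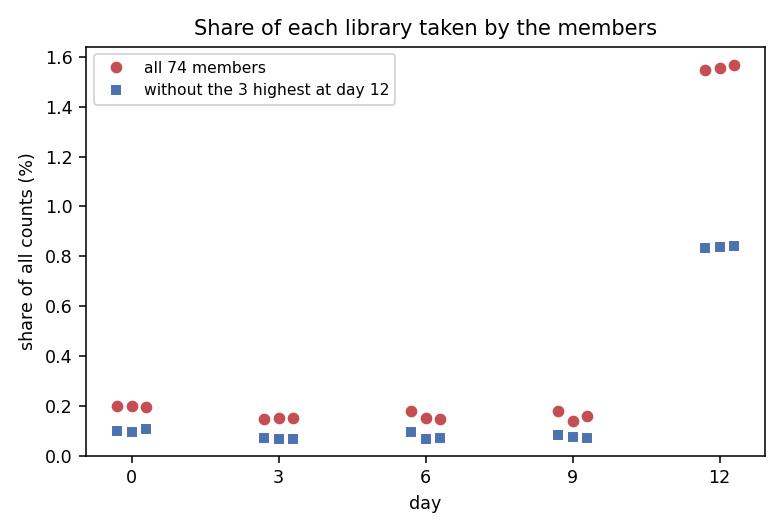
Share of all counts (%) taken by the 74 models in each library, by day, with 3 libraries a day. Red circles are all 74 models and blue squares leave out the 3 with the highest day 12 means; the day 12 libraries stand near 1.56% and 0.837%, and all other libraries stay at or below 0.198%.

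The levels reached on day 12 covered a wide range. The lowest day 12 mean was 2.01 CPM, the median 24.2 CPM and the highest 3327 CPM, with 25 models under 10 CPM, 26 between 10 and 100 CPM, and 23 at 100 CPM or more. Per coding length, the median day 12 mean was 30.5 FPKM (the count scaled to model length and library total), against 14.6 FPKM over the 22033 Pbr models with a day 12 mean of at least 2 CPM. The day 12 libraries lay close to each other: the median coefficient of variation was 5.99% over the 74 models and 7.49% over those 22033. A low value is partly built in, because the rule sets its limit on the lowest day 12 library.

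The name given to the group, genes switched on at day 12 only, did not describe most of its models. In the 12 other libraries, 42 of the 74 had a mean of at least 1 CPM, 24 had at least 10 CPM, and 36 had at least 10 counts in every one of those libraries. At the other end, 20 models had a mean under 0.2 CPM in the other libraries, 21 had 0 counts in at least 1 of them, and 8 had at most 10 counts over all 12 together. Between these ends, the models were measured on the earlier days as well, at lower levels than on day 12.

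**Figure D2:**
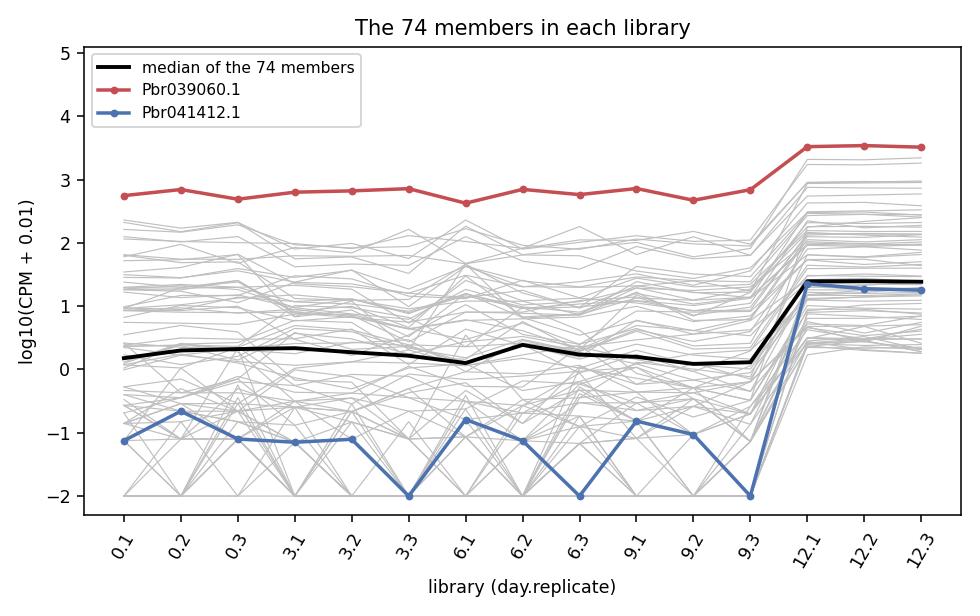
Level of each of the 74 models in the 15 libraries, as log10(CPM + 0.01), with libraries named by day and replicate. Grey lines are single models, the black line is their median, and the coloured lines are Pbr039060.1, present throughout, and Pbr041412.1, at 3 counts or fewer in each library before day 12.

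Pbr039060.1 had the highest day 12 mean of the 74. It lies on the minus strand of scaffold828.0 from 80412 to 83762 and has a coding length of 864 bases. It stood at 557, 695 and 488 CPM on day 0, at 631, 662 and 717 CPM on day 3, at 423, 699 and 578 CPM on day 6, and at 720.3, 470.4 and 690.0 CPM on day 9. On day 12 it stood at 3304, 3434 and 3243 CPM. The earlier days overlapped with each other, and the lowest day 12 library was 4.50 times the highest of them.

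Its day 12 mean of 3851 ± 113 FPKM (SD, n = 3) was also the highest of the 74 per coding length. Neither early comparison passed the test for this model: the log2 fold change was 0.24 ± 0.18 (SE) on day 3 against day 0, with an adjusted p of 0.441 by edgeR's quasi-likelihood test. On day 6 it was 0.02 ± 0.18 (SE), with an adjusted p of 0.967 in the same fit.

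Pbr041412.1 had the largest gap between day 12 and the other days. It lies on the plus strand of scaffold939.0 from 100443 to 102041, in 1 uninterrupted block of 1599 bases. Its counts were 1, 3 and 1 on day 0, 1, 1 and 0 on day 3, 2, 1 and 0 on day 6, and 2, 1 and 0 on day 9, against 347, 332 and 320 on day 12. These correspond to 22.6, 18.8 and 17.9 CPM on day 12 and to at most 0.209 CPM elsewhere.

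Its lowest day 12 library was 85.7 times its highest other library, a ratio that rests on 3 counts in the latter and has a 95% exact interval from 29.1 to 417.9. Summed over libraries, the 999 counts of day 12 against the 13 of the other days gave a ratio of 268, with an interval from 156 to 505. Both intervals cover counting error only. The model passed the filter on low counts only through day 12, so no test of its early days is given here.

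Counts before day 12 were fewer still in some lower models. On scaffold296.0 (29619 to 30116, minus strand, 1 block of 498 bases) a model had 1 count in the 12 other libraries together and 40, 54 and 54 counts on day 12. The ratio of these sums was 516, with a 95% exact interval from 91.1 to 20503, which shows how little 1 count fixes it. On scaffold175.0 (379299 to 379829, minus strand, 1 block of 531 bases) 3 counts in the 12 other libraries stood against 116, 121 and 110 on day 12, a ratio of 403 with an interval from 137 to 1964. These models were picked with their values in view.

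Over all 74, the lowest day 12 library was 4.003 to 85.7 times the highest other library, with a median of 6.99. Of these ratios, 20 were under 5, 25 were at least 10 and 5 were at least 20. The median log2 ratio of the day 12 mean to the mean of the 12 other libraries, with 0.1 CPM added to each, was 3.73, and over the 22033 models at 2 CPM or more on day 12 it was 0.01. The models just inside the limit of 4 had ratios of 4.003 (scaffold453.0, 317770 to 318329) and 4.03 (scaffold467.0, 165701 to 166945), and those just outside had 3.99 (scaffold164.0, 114557 to 114934) and 3.96 (scaffold81.0, 910612 to 911055). At the level limit, a model with a day 12 mean of 2.01 CPM was in and one with 1.98 CPM was out. At the day 9 limit, a model at 1.96 times its day 0 mean was in and one at 2.16 times was out.

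**Figure D3:**
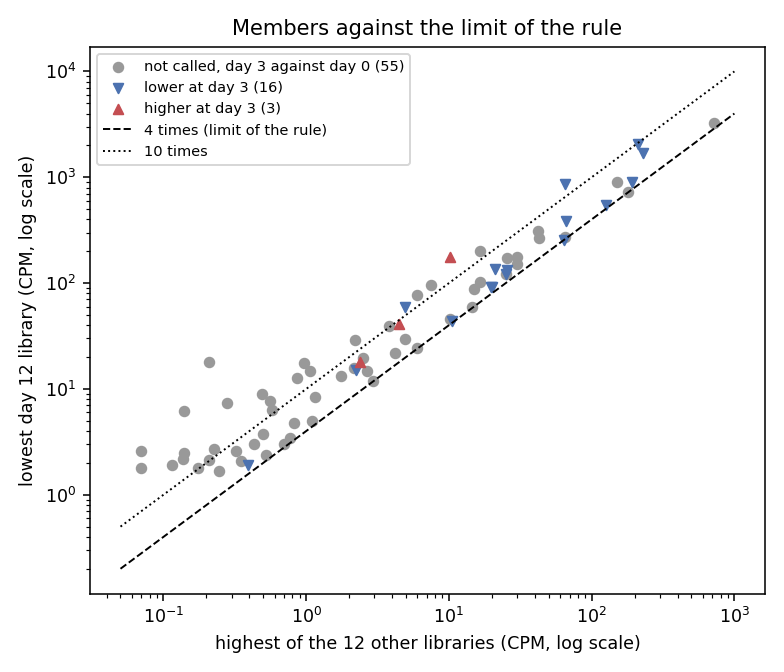
Lowest day 12 library against the highest of the 12 other libraries for each of the 74 models, both in CPM on log axes. The dashed line marks the limit of 4 times and the dotted line 10 times; blue triangles are the 16 models called lower on day 3 than on day 0, red triangles the 3 called higher, and grey points the 55 others.

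Before day 12 the models did not climb in steps. Their median day means were 1.77 CPM on day 0, 2.49 CPM on day 3, 1.73 CPM on day 6 and 1.46 CPM on day 9. The highest of the 4 earlier day means fell on day 0 for 34 models, on day 3 for 17, on day 6 for 8 and on day 9 for 15. The lowest fell on day 3 for 36 of them. Part of this is built in, because the rule limits day 9 relative to day 0.

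The comparison of day 3 with day 0, between the earliest sampled days, was not itself used to choose the models. All 74 passed the filter on low counts, but 28 of them did so only through day 12, since 46 passed when the filter was set on days 0 to 9. With the filter on days 0 to 9, 15 of those 46 fell and 3 rose on day 3 against day 0 (edgeR, FDR under 0.05), which is 32.6% and 6.52%, where 4.99% of all models tested in that fit were lower and 4.55% higher. With the filter over all days, 16 of the 74 fell and 3 rose, which is 21.6% and 4.05%, where 4.90% of all 29134 tested models were lower and 4.47% higher (9.36% in either direction). The median log2 fold change was -0.53 over the 74 and -0.41 over the 46, against -0.01 over all tested models. In the same fit 31 of the 74 had an unadjusted p under 0.05, where 7451 of all 29134 models did.

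The direction of these changes follows in part from the choice of the models. A high day 0 level makes it easier to stay under the day 9 limit. For the 44 models which met the other limits but not that one, a rise is favoured by the choice. They were kept out for a low day 0 level relative to day 9, and 11 of them had no count on day 0. These 44 gave 13 higher and 0 lower on day 3 in the same edgeR fit. Their calls were not counted with the filter on days 0 to 9. Among the 44, 18 had an unadjusted p under 0.05, where 7451 of all 29134 models did. Without the day 9 limit, 16 of 118 models were lower and 16 were higher on day 3, which is 13.6% each. DESeq2 gave 15 lower and 5 higher among the 74, where it called 7.33% of all models lower and 6.95% higher. Single libraries moved the number of calls in both directions together, 19 in the full fit. Dropping day 0 replicate 2 left 9, and dropping day 0 replicate 3 left 7. Dropping 1 library of day 3 left 11, 7 or 9 for replicates 1 to 3, and a fit with no day 12 library gave 7. The calls over all models shrank as well: between 1.41% and 2.37% were lower and between 1.77% and 2.83% higher in these 6 fits.

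**Figure D4:**
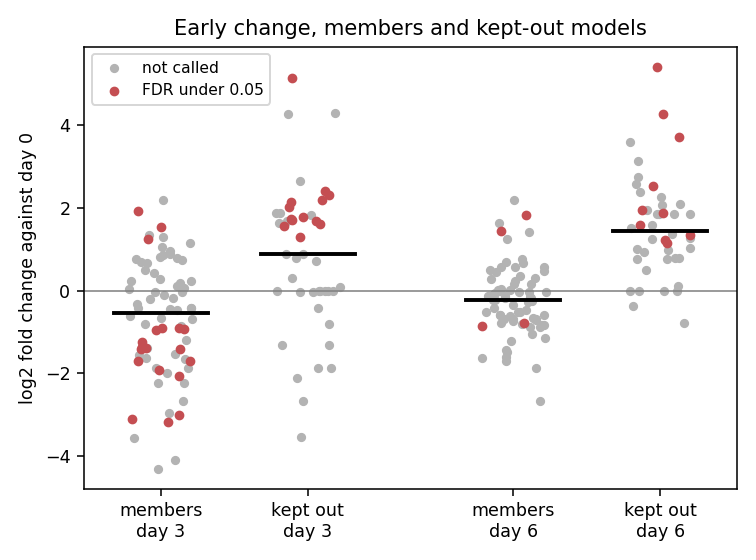
Log2 fold change of day 3 and of day 6 against day 0 for the 74 models and for the 44 models kept out by the day 9 limit. Each point is 1 model, red points passed the test (edgeR, FDR under 0.05) and bars are medians. Both comparisons share the day 0 libraries. The kept-out models lie higher than the 74 on both days, which the day 9 limit favours.

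The 16 models that fell on day 3 lay at log2 fold changes between -3.18 and -0.90, and 12 of them were at least 2-fold lower. In each of the 16, all 3 day 3 libraries lay under all 3 day 0 libraries. The test that called them used these same libraries, so this adds no support, and it was not counted over all models. Their day 0 means ran from 0.269 to 204 CPM. The faintest, on scaffold295.0 (183835 to 185391), had 6, 3 and 3 counts on day 0 and 1, 0 and 0 on day 3, and it passed the filter only through day 12. Of the 16, 3 kept the call in each of the 6 fits that left out 1 library of either day, and all 16 stayed below 0 in those fits. These 3 are on scaffold58.0, scaffold735.0 and scaffold453.0 and are described next, chosen after their values were seen.

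The model on scaffold58.0 (857193 to 859768, minus strand, coding length 1974 bases) had the second highest day 12 mean of the 74. It stood at 210.3, 150.0 and 208 CPM on day 0, at 55.9, 59.9 and 32.8 CPM on day 3, at 184, 64.6 and 81.9 CPM on day 6, at 102, 60.1 and 81.4 CPM on day 9, and at 2079, 2047 and 2202 CPM on day 12. The day 3 libraries lay under all day 0 libraries, and day 6 replicate 1 lay within the day 0 range while the other day 6 libraries did not. The fall on day 3 was -1.91 ± 0.35 (SE) on the log2 scale, with an adjusted p of 0.00679 by edgeR.

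The model on scaffold453.0 (317770 to 318329, plus strand, coding length 465 bases) stood at 63.6, 48.6 and 50.1 CPM on day 0 and at 13.2, 12.3 and 12.8 CPM on day 3. It stood at 45.9, 16.1 and 9.53 CPM on day 6, at 42.4, 32.1 and 29.2 CPM on day 9, and at 293, 282 and 255 CPM on day 12. The day 3 libraries were nearly equal and about as low as the lower day 6 libraries. The log2 fold change of day 3 against day 0 was -2.06 ± 0.41 (SE), with an adjusted p of 0.0101 by edgeR.

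The model on scaffold735.0 (167919 to 168604, minus strand, coding length 582 bases) stood at 34.6, 40.8 and 66.0 CPM on day 0, at 22.6, 20.2 and 16 CPM on day 3, and at 426, 435 and 385 CPM on day 12. Day 6 gave 30.7, 20.2 and 24.3 CPM, and day 9 gave 32.3, 21.3 and 36.0 CPM. Its log2 fold change was -1.24 ± 0.25 (SE) on day 3 (edgeR, adjusted p = 0.0107) and -0.86 ± 0.25 on day 6 (edgeR, adjusted p = 0.0439). The day 6 call was lost in 4 of the 6 fits without 1 library, with an adjusted p of up to 0.178. It was also lost with the replicate block, with no filter on low counts, with only days 0 and 6 in the fit and with no day 12 library.

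A larger fall was seen on scaffold280.0 (121758 to 125102, plus strand, coding length 2232 bases), from 52.1, 54.1 and 65.2 CPM on day 0 to 6.87, 12.0 and 2.02 CPM on day 3. Day 6 replicate 1 stood at 46.1 CPM beside 6.42 and 7.39 CPM in the other day 6 libraries, day 9 at 24.3, 16.3 and 16.7 CPM, and day 12 at 865, 883 and 897 CPM. The log2 fold change on day 3 was -3.01 ± 0.68 (SE), with an adjusted p of 0.0178 by edgeR, which rose to at most 0.0595 without 1 library. The call was kept in 4 of the 6 fits without 1 library and was lost with DESeq2. No day 9 library of this model reached a day 0 library.

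Day 6 replicate 1 stood apart from the other day 6 libraries in these 16 models. It was the highest day 6 library in 13 of the 16, which is 81.25%, against 41.1% of all 1427 models lower on day 3. Relative to the day 0 mean, the median over the 16 was 0.832 in day 6 replicate 1, and 0.412 and 0.452 in the other day 6 libraries. In the day 3 libraries it was 0.362, 0.378 and 0.324. Among the 31 other models of the 74 that passed the filter on days 0 to 9, that library was the highest of day 6 in 10, or 32.3%. What set this library apart was not tested.

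**Figure D5:**
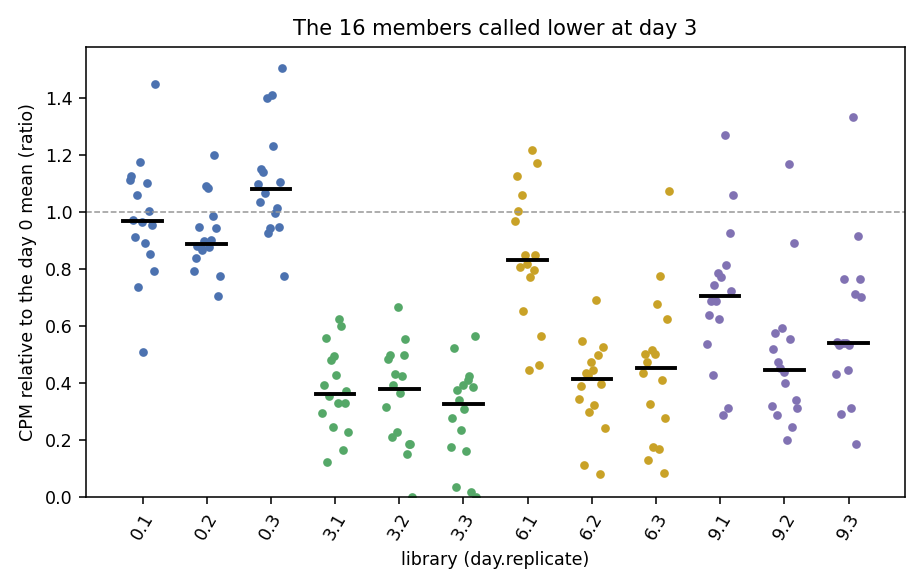
The 16 models called lower on day 3, as the ratio of each library's CPM to the model's day 0 mean, with libraries named by day and replicate and day 12 left out. Each point is 1 model, bars are medians over the 16, and the dashed line is the day 0 mean; day 6 replicate 1, with a median of 0.832, lies above the other day 6 libraries.

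The 3 models that rose on day 3 had a lower mean on day 9 than on day 3. The rule fixes this, because each had a day 3 mean over 2 times its day 0 mean. On scaffold413.0 (290337 to 292090, plus strand, coding length 537 bases) the level was 2.28, 2.44 and 2.30 CPM on day 0 and 10.2, 9.43 and 6.62 CPM on day 3. It was 2.28, 9.53 and 4.16 CPM on day 6, then 0.857, 0.502 and 0.314 CPM on day 9, and 177, 218 and 249.7 CPM on day 12. Days 0, 3, 9 and 12 did not overlap with each other, with day 9 the lowest. The log2 fold change on day 3 was 1.93 ± 0.39 (SE), with an adjusted p of 0.0109 by edgeR, and this call was kept in all 6 fits without 1 library.

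The other rises were on scaffold15.0 (646225 to 648279), from 1.49 ± 0.272 to 3.51 ± 1.19 CPM, and on scaffold401.0 (376796 to 384077), from 0.498 ± 0.21 to 1.45 ± 0.51 CPM (SD, n = 3 each). Their adjusted p-values by edgeR were 0.0303 and 0.0309, and they were kept in 2 and 1 of the 6 fits without 1 library, with adjusted p of up to 0.110 and 0.109. Both calls were also lost with only days 0 and 3 in the fit and with no day 12 library.

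On day 6, 2 of the 74 rose and 2 fell against day 0 (edgeR, FDR under 0.05), which is 2.70% each, where 5.30% of all tested models were higher and 4.26% lower (9.56% in either direction). With the filter on days 0 to 9 it was 2 and 2 of 46, or 4.35% each, where 5.44% of all models were higher and 4.4% lower. An unadjusted p under 0.05 by edgeR was reached by 16 of the 74 and by 7463 of all 29134 models, so by no larger a share of the 74. DESeq2 called 3 higher and 6 lower, where it called 8.14% of all models higher and 5.88% lower. Without day 6 replicate 1, 3 were higher and 15 lower, where 8.37% of all models were higher and 6.40% lower in that fit. Leaving out day 0 replicate 2, day 0 replicate 3 or day 6 replicate 3 left 1 higher and 0 lower in each case, where 2.03% to 4.35% of all models were higher and 1.73% to 3.50% lower.

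The call that was kept in all 6 fits without 1 library was the rise on scaffold401.0 (376796 to 384077, plus strand, coding length 4470 bases). This model, the longest of the 74, stood at 0.521, 0.696 and 0.279 CPM on day 0, at 1.03, 1.31 and 2.02 CPM on day 3, at 1.14, 1.69 and 2.37 CPM on day 6, and at 0.571, 1.25 and 0.692 CPM on day 9. Day 12 gave 18.1, 17.9 and 19.6 CPM. All day 6 libraries lay above all day 0 libraries, and the day 9 range reached from within day 0 to within day 6. The log2 fold change on day 6 was 1.84 ± 0.39 (SE), with an adjusted p of 0.0119 by edgeR, and the call was lost when only days 0 and 6 were in the fit.

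The other rise on day 6 was on scaffold133.0 (451601 to 455424, minus strand, coding length 2241 bases), with 0.521, 0.278 and 0.279 CPM on day 0 and 0.911, 0.843 and 1.15 CPM on day 6. It stood at 0.312 ± 0.153 CPM on day 3, 0.415 ± 0.0945 CPM on day 9 and 9.95 ± 1.37 CPM on day 12 (SD, n = 3 each). The day 6 libraries lay above those of day 0, with a log2 fold change of 1.46 ± 0.35 (SE) and an adjusted p of 0.0211 by edgeR. The call was lost in 3 of the 6 fits without 1 library, with an adjusted p of up to 0.0907. It was also lost with only days 0 and 6 in the fit and with no day 12 library.

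The 74 models were spread over the scaffolds. They lay on 67 of the 1658 scaffolds in the table, with 42 on the plus and 32 on the minus strand, and 0 of them overlapped another model. Of the scaffolds, 6 held more than 1, 13 models in all, with 3 on scaffold401.0. Coding lengths ran from 198 to 4470 bases with a median of 1053, against 1215 for all models at 2 CPM or more on day 12. The share in 1 uninterrupted block was 25.7% (19 models), against 16.9% for those models.

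In 2 places neighbouring models were both among the 74. On the plus strand of scaffold401.0, the model at 376796 to 384077 is followed by one at 389353 to 396711, with coding lengths of 4470 and 4275 bases. The second stood at 14.7, 16.4 and 19.3 CPM on day 12 and at 0.439 ± 0.528 CPM on day 0 (SD, n = 3), and its highest library before day 12 was at 1.07 CPM. On the plus strand of scaffold47.0, a model at 601468 to 601959 gave 8.92, 8.91 and 7.44 CPM on day 12, and the next, at 613756 to 614724, gave 2.61, 2.72 and 2.13 CPM. Both are single blocks and stayed at or below 0.279 CPM in every other library.

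The 139 models that flank the 74 on either side were compared between day 12 and day 0. This contrast is not free of the rule, which compared day 12 with the earlier days in every Pbr model. A neighbour that met the whole rule counts among the 74 and not among the flanks. Of the 93 tested, 18 were higher, which is 19.4%, where 11.6% of all tested models were, and 10 were lower, where 11.0% were (edgeR, FDR under 0.05). With the filter on days 0 to 9, 16 of 90 were higher, where 11.2% of all models were. The median log2 fold change of the 93 was 0.02, against -0.02 over all tested models. The largest changes were on scaffold413.0 and scaffold110.0. The model on scaffold413.0 at 294467 to 297007, next to the one described above, had 12.9 ± 2.68 CPM on day 0 and 1048 ± 47.7 CPM on day 12 (SD, n = 3 each), a log2 fold change of 6.40 ± 0.43 (SE) with an adjusted p of 6.34e-07 by edgeR.

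That neighbour met the fold and level limits and was left out by the day 9 limit alone, since it stood at 38.9 ± 10.1 CPM on day 9 (SD, n = 3). Its p-value is therefore not independent of the limits of the rule. The one on scaffold110.0 (627973 to 629119) had 0 counts in all 12 other libraries and 1.81 ± 0.301 CPM on day 12 (SD, n = 3), so it missed the level limit. Against a floor of 3 counts over those 12 libraries it was at least 107-fold higher on day 12. It passed the filter on low counts only through day 12, so no p-value is given for it.

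Some of the 74 may share reads with a near-identical copy. Of those in more than 1 block, 7 had the same coding length and the same span as another model, which was not counted over all models or checked by sequence. Among them is a pair on scaffold320.0, at 150292 to 153112 on the plus strand and 421724 to 424544 on the minus strand, both with a coding length of 2112 bases. They stood at 4.07 ± 1.17 and 65.3 ± 5.35 CPM on day 12 (SD, n = 3 each).

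Another pair is the model on scaffold735.0 described above and one on scaffold590.0 (221534 to 222219, plus strand), both 582 bases long. The second stood at 16.8 ± 1.41 CPM on day 12 and 1.48 ± 0.65 CPM on day 0 (SD, n = 3 each). It was also called lower on day 3, at -1.38 on the log2 scale with an edgeR adjusted p of 0.0467. That call was kept in only 1 of the 6 fits without 1 library, with an adjusted p of up to 0.183. It was also lost with no filter on low counts, with only days 0 and 3 in the fit and with no day 12 library. The pair may share reads, so these calls may not be independent. A further model of that length and span, on scaffold590.0 at 55737 to 56422, had 0.171 CPM on day 12. How reads that match several places were counted is not given in the sources used here, so the levels of such models are uncertain.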

How the data were processed

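RNA of 15 libraries was analysed from 1 deposited table that holds, per gene model and library, a read count without normalization and an FPKM value, per the file headers. The FPKM values were made by the authors: counts, lengths and totals gave back all 996 FPKM values above 0 of the 74 models within a relative tolerance of 0.0001. Reads were placed on the *Pyrus bretschneideri* genome, another pear species, per the series' design text, with HISAT per the submitters' processing notes. Which genome version and counter were used, whether strand mattered and how multiply placed reads were treated is not given in the sources used here.

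CPM was the count divided by the column total, times 1000000. Early changes came from edgeR 4.0.16 in R 4.3.3 (filterByExpr with the 5 days as groups, TMM, glmQLFit and glmQLFTest over all 15 libraries, 29134 models, Benjamini-Hochberg over all of them, FDR under 0.05), tested on simulated data. SE is the size of the log2 fold change divided by the square root of F. DESeq2 1.42.0, other scalings, filters and limits, a replicate block and leaving out each library were alternatives; the flanking models and the comparison with kept-out models were added after seeing the data. The models and lists were chosen with earlier results of these data known. By rule, IDs are printed only for the highest day 12 mean and the largest ratio of lowest day 12 to highest other library. Planned gene groups and markers needed descriptions and were not tested.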

Additional observations from a re-analysis of the deposited data

Results flagged for a closer look

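Outside the 42812 models with the Pbr prefix, the table holds 1869 others, which the choice of models left out. Of these, 2 met the limits on fold and level, and 0 met the day 9 limit as well. One, on the plus strand of scaffold106.0 (247305 to 248230), had a mean of 2.54 ± 0.277 CPM on day 12 (SD, n = 3), with 0 counts in the 3 day 0 libraries and at most 4 counts in any other library before day 12. The other, on the plus strand of scaffold15.0 (1270457 to 1271583), had 70.3 ± 11 CPM on day 12 and 1.91 ± 0.135 CPM on day 0 (SD, n = 3 each). It stood at 5.82 ± 1.36, 4.77 ± 2.77 and 5.77 ± 2.43 CPM on days 3, 6 and 9, above day 0 on each of them in the mean.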

How the results depend on the processing

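The number of models was 74, and 44 with a fold limit of 6 and 118 with no day 9 limit; the other limits, scalings and units gave 56 to 109, and leaving out 1 library gave 73 to 82. The median log2 ratio was 3.73, 3.09 with a pseudocount of 0.5 CPM, and 3.73 to 3.79 without 1 day 12 library. The 19 calls on day 3 were 32 among the 118 without the day 9 limit, where 4.47% of all models were higher and 4.90% lower. They were 7 of 46 with day 12 left out of the fit, where 2.25% of all models were higher and 2.37% lower. Without 1 library they were 7 to 18, where 1.77% to 3.56% of all models were higher and 1.41% to 4.71% lower. The 4 calls on day 6 were 14 among the 118 without the day 9 limit (5.30% of all models higher, 4.26% lower). They were 1 of 46 with day 12 left out of the fit (3.16% and 2.60%) and 1 to 18 without 1 library (2.03% to 8.37% and 1.73% to 6.40%). DESeq2 gave 9 (8.14% and 5.88%). With only the 2 days in the fit there were 0 of 45. Hardly any model was called in that fit, 0.0398% of all higher and 0.0507% lower. For Pbr039060.1, the log2 fold change on day 6 turned to -0.031 with upper-quartile scaling and ran from -0.14 (without day 6 replicate 2; -0.069 without day 0 replicate 3) to 0.19 without 1 library. For Pbr041412.1, which passed the filter on low counts only through day 12, it was -0.67 ± 0.90 (SE) in the full fit. Without 1 library it ran from -1.60 to 0.014, the latter without day 0 replicate 2. These values rest on at most 3 counts per library and fix no direction. The cause was not tested. The 18 higher flanking models were 13 to 20 under all alternatives run, where 8.39% to 14.1% of all models were higher.

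Over 30 same-numbered pairs of libraries of different days, the correlations of their deviations ran from -0.08 to 0.17, with 2 over 0.1. Over the other pairs they ran from -0.193 to 0.155. Both values over 0.1 were between day 0 and day 6. There the same-numbered pairs gave 0.133, 0.166 and 0.091, and the others ran from -0.193 to 0.057. The labels do not say that a number marks a shared culture, so the main fit held no replicate block. The replicate block gave 21 calls on day 3, 5 on day 6 and 19 flanking models. Calls on models with few counts before day 12 rest on counts of about 10 or fewer per library and are the least precise.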

Other observations

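The 44 models kept out by the day 9 limit alone split in 2 ways: 11 had no count on day 0, which makes any day 9 level too high for the limit, and 33 had a day 9 mean of at least 2 times a measured day 0 mean. The highest of them on day 12 was the neighbour on scaffold413.0 at 1048 CPM, 33.7 times its mean over the 12 other libraries. Another, on scaffold110.0 (276153 to 277882), had 0 counts in all 12 other libraries and 53, 31 and 59 counts on day 12. Its mean of 2.84 CPM was at least 168-fold higher than a floor of 3 counts over those 12 libraries. It was left out because 0 is not under 2 times 0.

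With the same fold of 4 and the same level of 2 CPM, and without a limit on a further day, 118 Pbr models were highest on day 12, 28 on day 0, 2 on day 9, and 0 on day 3 or day 6. Of these counts no test was made.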
